A study of Homo sapiens with 6 samples.

Results

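The 10 genes described here encode AP-1 and immediate early transcription factors: JUN, JUNB, JUND, FOS, FOSL1, FOSL2, ATF3, EGR1, IER2 and KLF6. They were taken by gene symbol from a table of 58735 genes, each symbol matched 1 row, and all 10 passed the filter that left 14352 genes for testing. RNA had been sequenced from KYSE30 cells, an established human line from an oesophageal squamous cell carcinoma. The cells carried 1 of 2 siRNAs against the small GTPase gene RAB23, si-RAB23-1 or si-RAB23-9, or the control siRNA si-NC, each delivered by a lipid reagent at a final 100 nM. Each of the 3 groups has 2 libraries, called biological replicates in the design, which names si-NC as the reference for both RAB23 siRNAs. All 3 groups share the parental line, the lipid reagent and an siRNA, and no untransfected group was analysed. Whether replicates were separate cultures is not given in the sources used here, so the p-values rest on a library-to-library spread that may be technical.

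AP-1 is a dimer of leucine zipper proteins. JUN, JUNB and JUND can pair with themselves or with FOS proteins, whereas FOS, FOSL1 and FOSL2 need a JUN partner to bind DNA. Immediate early genes such as FOS, EGR1, IER2 and KLF6 are transcribed within minutes of growth factor or stress signals, without new protein synthesis. In squamous epithelium AP-1 is known for regulating keratinocyte proliferation, differentiation and motility.

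Libraries held 17211025 to 24178125 recovered reads, and 13576 to 13700 genes reached 1 FPKM (fragments per kilobase of gene length, scaled to library depth) in a library. RAB23 was at 1.03 and 1.10 FPKM with si-RAB23-1 and at 1.18 and 1.27 FPKM with si-RAB23-9, against 3.27 and 3.33 FPKM with si-NC, a log2 fold change of -1.06 with si-RAB23-1 and -0.95 with si-RAB23-9 (limma adjusted p = 0.00314 and 0.00392). Of 9 markers listed for squamous epithelium 8 reached 1 FPKM in at least 1 library. KRT5, a basal keratin, did not, with at most 0.272 FPKM, and KRT14 and KRT17 stayed at or below 3.61 FPKM. EPCAM and CDH1, general epithelial genes, were each at 80.9 FPKM or more in every library and held most of the summed level. Over all 9 markers that level was 281.9 to 287.8 FPKM with si-RAB23-1, 286.7 to 287.3 with si-RAB23-9 and 239.3 to 244.6 with si-NC. SOX2 held most of that gap, at 59.2 and 66.2 FPKM with si-RAB23-1 and 65.4 and 62.5 FPKM with si-RAB23-9, against 35.8 and 40.6 FPKM with si-NC. The markers did not move as one: TP63 was at 19.7 and 19.1 FPKM with si-RAB23-1 and at 12.0 and 11.4 FPKM with si-RAB23-9, against 14.2 and 14.6 FPKM with si-NC. The part of these differences in the results below was not tested. Summed fibroblast markers stayed at or below 3.92 FPKM, with COL1A2, PDGFRA, LUM and DCN at 0, and leukocyte and columnar markers stayed below 1 FPKM. Of 5 endothelial markers only CDH5 reached 1 FPKM, KDR was at 0, and the sum was 1.62 to 2.12 FPKM with si-RAB23-1, 2.75 to 3.18 with si-RAB23-9 and 3.77 to 3.803 with si-NC.

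In control cells the JUN family was led by JUNB and JUND, and the FOS family by FOSL1 and FOSL2. FPKM is scaled to gene length, so levels can be set against each other, though only roughly. The length used need not be that of the mRNA expressed. For FOS it is 3238 of the 3457 bases spanned, although the principal transcript has 4 exons. With si-NC, JUNB averaged 80.1 ± 7.41 FPKM and JUND 54.0 ± 5.30 FPKM (SD, n = 2 each). FOSL1 followed at 33.6 ± 1.70 FPKM, FOSL2 at 22.3 ± 1.10 FPKM and JUN, the founding member of the family, at 16.9 ± 0.354 FPKM. IER2 (16.8 ± 0.406 FPKM) could not be separated from JUN, since their libraries overlapped. KLF6 averaged 13.0 ± 0.453 FPKM, ATF3 7.71 ± 0.426 FPKM, EGR1 3.19 ± 0.101 FPKM and FOS 1.97 ± 0.306 FPKM. All other neighbours in this order were apart in both libraries. With si-RAB23-1 KLF6 (26.3 ± 1.86 FPKM) stood above JUN, IER2 and FOSL2, and with si-RAB23-9 (15.5 ± 0.887 FPKM) below all 3 of them. JUNB stood above 96.9% of the tested genes and FOS above 22.6%. FOS rested on 93 to 169 reads a library and EGR1 on 191 to 320, while each of the other factors had at least 623.

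Promoter sequences from RefSeq (GRCh38.p14, 250 bases before to 50 bases after the start site) were matched for 9 of the 10 genes, ATF3 having 2 promoters. Those of 3 genes that rose with si-RAB23-1 and share a site, and that of EGR1, are shown. Capitals mark TGACATCA, the site known from the JUN promoter as bound by JUN and ATF proteins, the CCAAT box (CCAAT, or ATTGG on the other strand) and the CArG box, the recognition site of serum response factor.
JUN, chr1:58783998-58784297, minus strand: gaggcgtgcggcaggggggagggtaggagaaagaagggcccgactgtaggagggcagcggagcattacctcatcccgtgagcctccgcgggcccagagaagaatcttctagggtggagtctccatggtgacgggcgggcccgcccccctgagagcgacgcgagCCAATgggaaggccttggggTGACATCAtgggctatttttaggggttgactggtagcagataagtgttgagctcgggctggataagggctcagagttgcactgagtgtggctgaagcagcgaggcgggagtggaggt
ATF3, chr1:212565157-212565456, plus strand: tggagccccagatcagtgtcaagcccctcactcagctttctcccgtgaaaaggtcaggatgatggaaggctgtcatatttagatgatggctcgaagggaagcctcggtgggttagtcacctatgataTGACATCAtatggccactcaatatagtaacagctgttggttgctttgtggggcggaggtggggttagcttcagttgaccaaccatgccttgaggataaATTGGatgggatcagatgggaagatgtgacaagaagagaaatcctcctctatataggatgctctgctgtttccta
KLF6, chr10:3785160-3785459, minus strand: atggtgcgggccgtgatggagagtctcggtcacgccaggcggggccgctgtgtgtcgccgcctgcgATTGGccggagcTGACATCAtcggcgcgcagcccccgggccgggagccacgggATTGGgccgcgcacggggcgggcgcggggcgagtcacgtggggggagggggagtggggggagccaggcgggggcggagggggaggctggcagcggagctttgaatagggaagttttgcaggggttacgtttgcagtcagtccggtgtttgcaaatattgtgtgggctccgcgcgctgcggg
EGR1, chr5:138465229-138465528, plus strand: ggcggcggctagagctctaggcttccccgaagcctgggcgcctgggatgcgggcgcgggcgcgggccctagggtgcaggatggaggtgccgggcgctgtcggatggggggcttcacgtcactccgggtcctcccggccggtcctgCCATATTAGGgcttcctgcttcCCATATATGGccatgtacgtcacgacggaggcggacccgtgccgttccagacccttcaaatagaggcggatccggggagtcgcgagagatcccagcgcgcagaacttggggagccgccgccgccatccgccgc

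TGACATCA began 67 bases before the start site of JUN, 123 before that of the ATF3 promoter shown and 172 before that of KLF6. The other ATF3 promoter, which is not shown, lacked TGACATCA. TGACATCA was looked for on both strands and was added to the search after these sequences had been seen. It is held by 2.61% of the 35116 promoters in the table. JUNB, EGR1 and IER2, which also rose with si-RAB23-1, lacked it, and a link between the site and the rise was not tested. EGR1 held 2 CArG boxes, at 105 and 83 bases before its start site, and 1.29% of promoters hold at least 1. The cyclic AMP response element TGACGTCA occurred only in JUND (1.85% of promoters), and the AP-1 sites TGACTCA or TGAGTCA only in FOSL2 (4.95%). GCGTGGGCG, the EGR1 site, was in none of the 9 (0.794%), and JUNB and FOS held TATAAA within 33 bases of the start site. GGGCGG boxes (44.9% of promoters) were in JUN, JUND, FOS, FOSL2, ATF3, IER2 and KLF6, and 5 of the 9 genes held a CCAAT box (34.6%). A match describes letters in this window only.

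With si-RAB23-1, 6 of the 10 factors rose and none fell: JUN, JUNB, ATF3, EGR1, IER2 and KLF6. A gene was called at a limma adjusted p under 0.05 over all 14352 genes, and 8.13% of genes were called higher and 7.26% lower in this comparison. The median log2 fold change, on the log2(FPKM + 1) scale that understates changes of low genes, was 0.34 over the 10 factors and 0.01 over all genes. At an unadjusted p under 0.05 none of the 10 was lower, and voom on recovered reads called none lower. Below, groups are said not to overlap where both libraries of 1 lie on the same side of both libraries of the other. With 2 libraries against 2 the smallest two-sided exact permutation p is 0.333, so lack of overlap is no evidence of change by itself. The share of all genes without overlap was not counted.

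**Figure D1:**
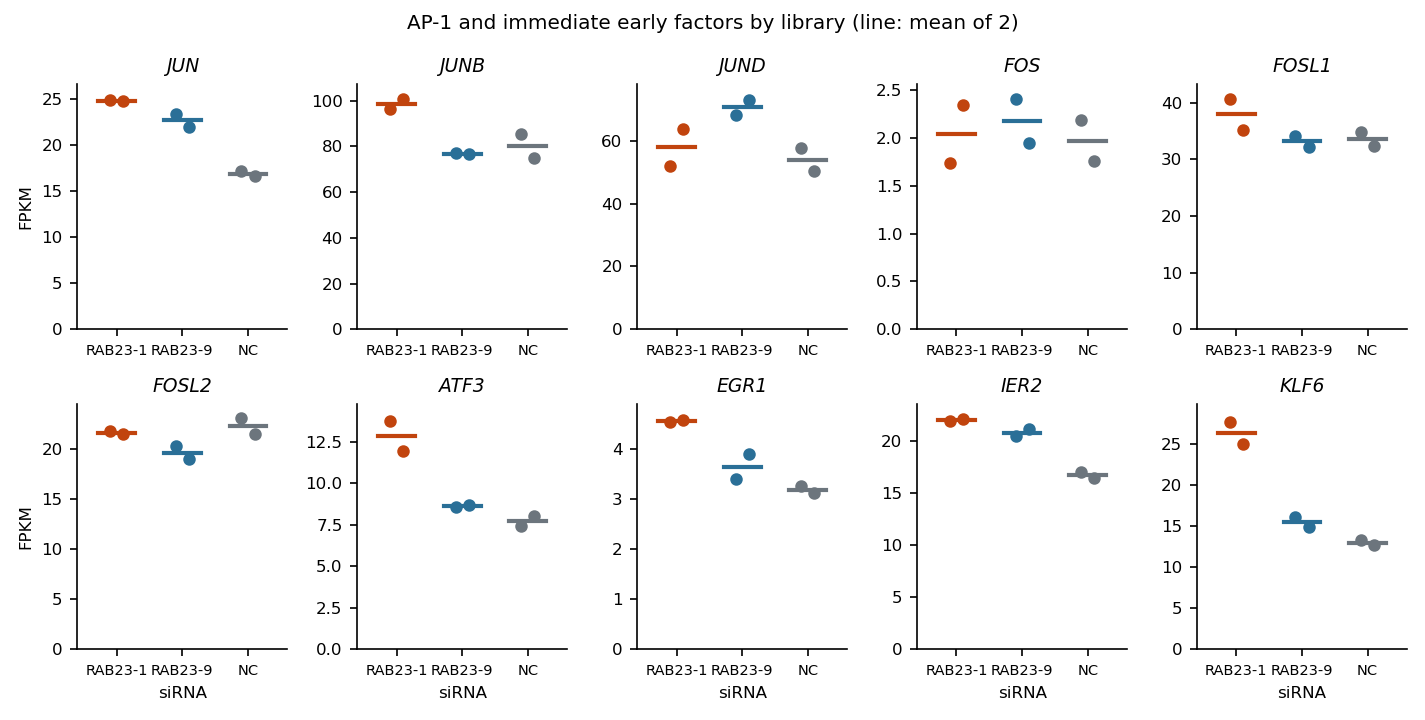
FPKM of each of the 10 factors (vertical axes from 0) in each library with si-RAB23-1, si-RAB23-9 or si-NC; dots are libraries and lines are means of 2. KLF6 and ATF3 stand highest with si-RAB23-1, while JUN and IER2 are above si-NC with both siRNAs.

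KLF6 (ENSG00000067082, chromosome 10, 3775996 to 3785281), which encodes a zinc finger factor described as a tumour suppressor, changed most. It was at 27.6 and 25.0 FPKM with si-RAB23-1, against 13.3 and 12.7 FPKM with si-NC, a ratio of means of 2.03. The libraries of the groups did not overlap, and the log2 fold change was 0.97 (SE 0.0653, limma adjusted p = 0.00224), the 47th highest of all genes tested. ATF3 (ENSG00000162772, chromosome 1, 212565334 to 212620777), a stress-induced factor that forms dimers with JUN proteins, was at 13.7 and 11.9 FPKM with si-RAB23-1, against 7.41 and 8.02 FPKM with si-NC. It rose by 0.66 (SE 0.0740, limma adjusted p = 0.00605), that is 1.66-fold on the means, again without overlap.

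Among the JUN family, JUN (ENSG00000177606, chromosome 1, 58780788 to 58784327) was at 24.9 and 24.8 FPKM with si-RAB23-1, against 17.1 and 16.6 FPKM with si-NC. The 2 si-RAB23-1 libraries were nearly equal and well above si-NC, with a log2 fold change of 0.53 (SE 0.0433, limma adjusted p = 0.00348). JUNB (ENSG00000171223, chromosome 19, 12791496 to 12793315), often described as an antagonist of JUN in proliferation, was at 96.5 and 100.7 FPKM with si-RAB23-1, against 85.4 and 74.9 FPKM with si-NC. Its groups did not overlap, but the si-NC libraries lay far apart, and the rise of 0.30 had a limma adjusted p = 0.0343. JUNB lies wholly within the coordinates of HOOK2 on the other strand (at most 16.1 FPKM), and with strandedness not given its reads could belong to either gene. JUND (ENSG00000130522, chromosome 19, 18279760 to 18281622), known as the more constitutive member, was at 52.0 and 63.7 FPKM with si-RAB23-1, against 57.7 and 50.2 FPKM with si-NC. These libraries overlapped, and the difference of 0.09 was not called (limma adjusted p = 0.609).

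The immediate early genes IER2 and EGR1 rose less than KLF6. IER2 (ENSG00000160888, chromosome 19, 13150415 to 13154908), which encodes a nuclear protein induced by growth factors, was at 22.0 and 22.1 FPKM with si-RAB23-1, against 17.0 and 16.5 FPKM with si-NC (log2 fold change 0.38, SE 0.0390, limma adjusted p = 0.00542). EGR1 (ENSG00000120738, chromosome 5, 138465490 to 138469315), the zinc finger factor induced through serum response factor, was at 4.54 and 4.59 FPKM with si-RAB23-1, against 3.26 and 3.11 FPKM with si-NC (log2 fold change 0.41, limma adjusted p = 0.0180). Neither gene's groups overlapped.

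The FOS family showed no called change with si-RAB23-1. FOS itself (ENSG00000170345, chromosome 14, 75278774 to 75282230) was at 1.73 and 2.35 FPKM with si-RAB23-1, against 2.19 and 1.75 FPKM with si-NC. FOSL1 (ENSG00000175592, chromosome 11, 65892049 to 65900573), the Fra-1 gene, was at 40.8 and 35.2 FPKM with si-RAB23-1, against 34.8 and 32.4 FPKM with si-NC. FOSL2 (ENSG00000075426, chromosome 2, 28392448 to 28417312), the Fra-2 gene, was at 21.8 and 21.5 FPKM with si-RAB23-1, against 23.1 and 21.5 FPKM with si-NC. FOS overlapped fully between the groups. The 95% intervals of the log2 differences ran from -0.32 to 0.38 for FOS, from -0.03 to 0.36 for FOSL1 and from -0.17 to 0.09 for FOSL2.

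Calls depended on the libraries in the fit. KLF6 and JUN were called with any 1 library left out, at limma adjusted p up to 0.0297 and 0.0395. ATF3 was lost when control replicate 1 was omitted (limma adjusted p = 0.0504), and IER2 when control replicate 2 was (0.0509). EGR1 was lost on leaving out either control library (0.0854 and 0.103) or either si-RAB23-1 library (0.0686 and 0.0579). JUNB kept its call only without si-NC replicate 1, and its adjusted p was 0.0931 on leaving out si-NC replicate 2, 0.0856 and 0.101 for the si-RAB23-1 libraries, and 0.0723 and 0.0722 for the si-RAB23-9 libraries. JUNB was also lost with the replicate number as a block (0.0559), without a filter on low values (0.108), with quantile normalization (0.0520) and with a 2-group fit (0.0724), and EGR1 was lost without a filter (0.0615). The count of 6 fell to 3 without si-NC replicate 2.

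With si-RAB23-9, 2 of the 10 factors rose, JUN and IER2, and none fell. At an unadjusted p under 0.05, 1 of the 10 was lower, and voom called 1 lower, FOSL2 in both cases. In this comparison 7.56% of all genes were called higher and 5.69% lower. The median log2 fold change of the factors was 0.15, against 0.01 over all genes. Both comparisons use the same si-NC libraries, so they are not independent of each other.

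JUN was at 23.4 and 22.0 FPKM with si-RAB23-9, against 17.1 and 16.6 FPKM with si-NC, and IER2 at 20.5 and 21.2 FPKM with si-RAB23-9, against 17.0 and 16.5 FPKM with si-NC. Neither gene overlapped between the groups. JUN rose by 0.41 (SE 0.0433, limma adjusted p = 0.00611) and IER2 by 0.30 (SE 0.0390, limma adjusted p = 0.01005), 1.35-fold and 1.24-fold on the means. JUN was lost without si-NC replicate 2 (limma adjusted p = 0.0580). IER2 lost its call on leaving out either control library (0.0581 and 0.0756) or either si-RAB23-9 library (0.0564 and 0.0801). Of the 2 calls, 1 was left on omitting control replicate 1 or either si-RAB23-9 library, and 0 on omitting control replicate 2.

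JUND, KLF6 and FOSL2 lay near the threshold with si-RAB23-9 and were not called. JUND was at 68.1 and 73.0 FPKM with si-RAB23-9, against 57.7 and 50.2 FPKM with si-NC (log2 fold change 0.38, limma adjusted p = 0.0781). KLF6 was at 16.1 and 14.8 FPKM with si-RAB23-9, against 13.3 and 12.7 FPKM with si-NC (0.24, limma adjusted p = 0.0706). FOSL2 was at 20.3 and 19.0 FPKM with si-RAB23-9, against 23.1 and 21.5 FPKM with si-NC (-0.18, limma adjusted p = 0.0810). None of the 3 overlapped between the groups, which is no evidence by itself with 2 libraries each. All 3 were called by voom on recovered reads and under a filter on mean FPKM of 5, which gave 5 called members each. KLF6 was also called with the replicate block (0.0375), FOSL2 with quantile normalization (0.0474), and JUND with a 2-group fit (0.0427) and on omitting either si-RAB23-1 library (0.0426).

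The remaining 5 factors were further from the threshold with si-RAB23-9. JUNB was at 77.1 and 76.7 FPKM, inside the si-NC range, and ATF3 at 8.57 and 8.69 FPKM, above both si-NC libraries. EGR1 was at 3.39 and 3.90 FPKM with si-RAB23-9, also above si-NC. FOS was at 2.40 and 1.95 FPKM and FOSL1 at 34.2 and 32.2 FPKM, and both overlapped si-NC. The limma adjusted p of these 5 genes lay between 0.223 (EGR1) and 0.897 (FOSL1).

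**Figure D2:**
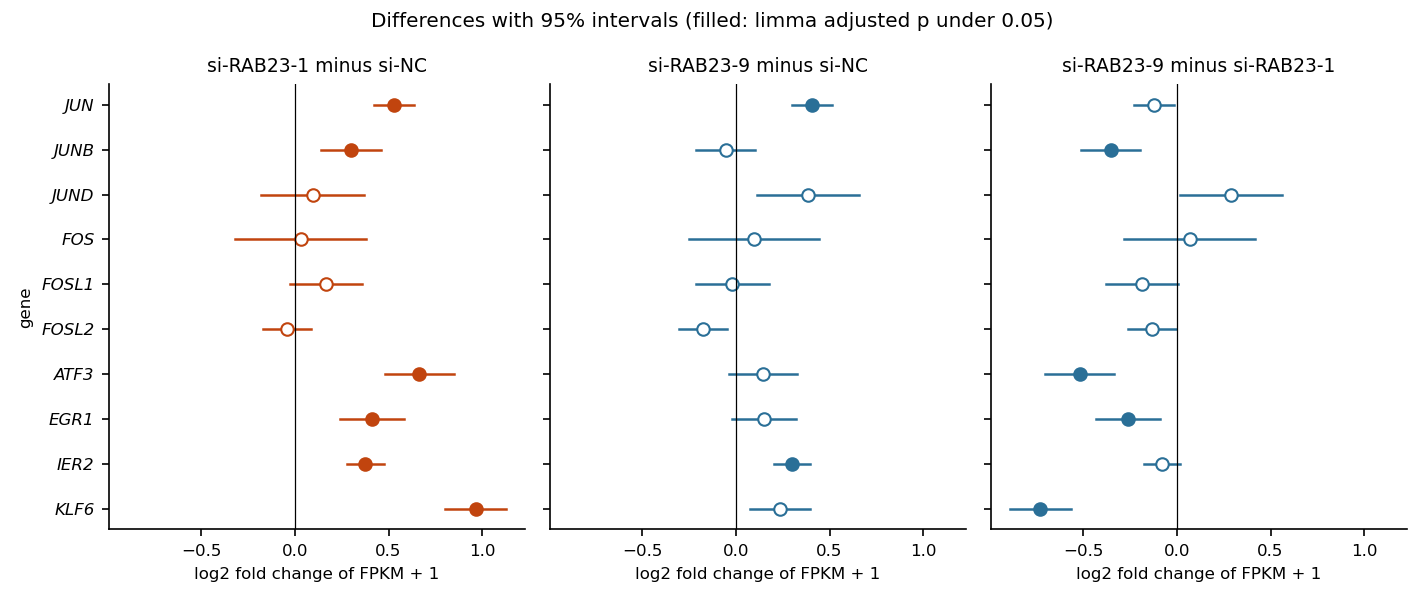
Log2 fold change of FPKM + 1 (horizontal axes) of each factor in the 3 comparisons, with 95% intervals from limma; filled circles have an adjusted p under 0.05. Filled circles number 6 with si-RAB23-1 and 2 with si-RAB23-9 against si-NC, and 4 between the siRNAs, all 4 to the left of 0.

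Set directly against each other, the siRNAs differed for 4 of the 10 factors, all lower with si-RAB23-9 than with si-RAB23-1: KLF6, ATF3, JUNB and EGR1. In this comparison 9.89% of all genes were lower and 11.1% higher. None of the 10 was called higher by limma, though JUND was at an unadjusted p under 0.05 and by voom. KLF6 was lower by 0.73 on the log2 scale (SE 0.0653, limma adjusted p = 0.00287), at 0.588 times its si-RAB23-1 mean. ATF3 was lower by 0.52 (limma adjusted p = 0.00930), at 0.672 times. JUNB differed by -0.35 (limma adjusted p = 0.0178) and EGR1 by -0.26 (limma adjusted p = 0.0481). In each of these genes both si-RAB23-9 libraries lay below both si-RAB23-1 libraries. This adds no support, since the genes were called on the same libraries.

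For JUN and IER2, which rose with both siRNAs, the direct difference was not called. It was -0.12 for JUN (95% interval -0.23 to -0.02, limma adjusted p = 0.0992) and -0.08 for IER2 (95% interval -0.18 to 0.02, limma adjusted p = 0.209). JUND went the other way, at 0.29 (limma adjusted p = 0.122; 0.00172 by voom). Of the 4 calls, that of KLF6 was kept with any 1 library left out. ATF3 was lost without si-RAB23-9 replicate 1 (limma adjusted p = 0.0575) or 2 (0.0589), and JUNB without either si-RAB23-1 library (0.0574 and 0.0579) or either si-RAB23-9 library (0.0847 and 0.0924). EGR1 was lost without any 1 of the 6 libraries (0.0697 to 0.180), with the replicate block (0.0731), without a filter (0.137) and with a 2-group fit (0.0843), and JUNB was lost without a filter (0.0649). The count of 4 fell to 2 without si-RAB23-1 replicate 1 and to 1 without si-RAB23-9 replicate 1 or 2.

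**Figure D3:**
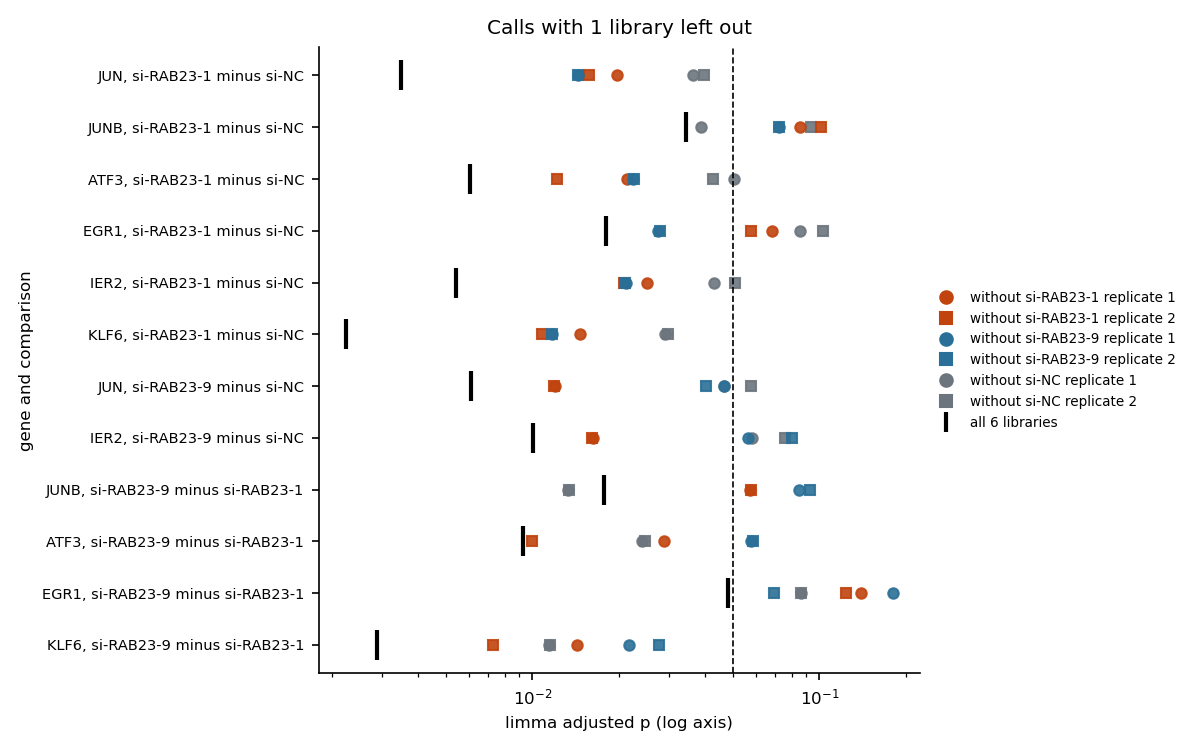
Limma adjusted p (log axis) of each of the 12 calls with all 6 libraries (black bar) and with 1 library left out (circle for replicate 1, square for replicate 2, coloured by group); the dashed line is 0.05. All 6 left-out values stay below the line for JUN and KLF6 with si-RAB23-1 and for KLF6 between the siRNAs.

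The make-up of the JUN family was set side by side across the groups. Its summed level was 173.4 and 189.1 FPKM with si-RAB23-1 and 168.6 and 171.7 FPKM with si-RAB23-9, against 160.2 and 141.7 FPKM with si-NC, so both knockdown groups lay above the control libraries. JUN made up 13.7% ± 0.900 of the family with si-RAB23-1 and 13.4% ± 0.758 with si-RAB23-9, against 11.2% ± 0.736 with si-NC (SD, n = 2 each). JUNB made up 54.5% ± 1.69 with si-RAB23-1 and 45.2% ± 0.744 with si-RAB23-9, against 53.1% ± 0.319 with si-NC. JUND held 31.8% ± 2.59 with si-RAB23-1 and 41.5% ± 1.503 with si-RAB23-9, against 35.7% ± 0.418 with si-NC. JUNB thus had its lowest share, and JUND its highest, with si-RAB23-9. The JUNB share with si-RAB23-1 overlapped that with si-NC (53.26% in si-RAB23-1 replicate 2, 53.28% in si-NC replicate 1). These sums and shares are given as values and were not tested.

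The summed level of the FOS family with either RAB23 siRNA overlapped that with si-NC, while both si-RAB23-9 libraries lay below both si-RAB23-1 libraries. With FOSB included, a member that stayed below 1 FPKM, it came to 65.1 and 59.8 FPKM with si-RAB23-1 and 57.7 and 53.8 FPKM with si-RAB23-9, against 60.6 and 56.2 FPKM with si-NC. FOSL1 made up 60.8% ± 2.60 with si-RAB23-1 and 59.5% ± 0.392 with si-RAB23-9, against 57.6% ± 0.163 with si-NC. The ratio of summed JUN family to FOS family FPKM was 2.66 and 3.16 in si-RAB23-1 libraries and 2.92 and 3.19 with si-RAB23-9, against 2.64 and 2.52 with si-NC. All 4 knockdown libraries were above both controls in this ratio, but si-RAB23-1 replicate 1 (2.6642) only barely above si-NC replicate 1 (2.6425). The ratio was not tested, and lack of overlap is no evidence of change by itself.

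**Figure D4:**
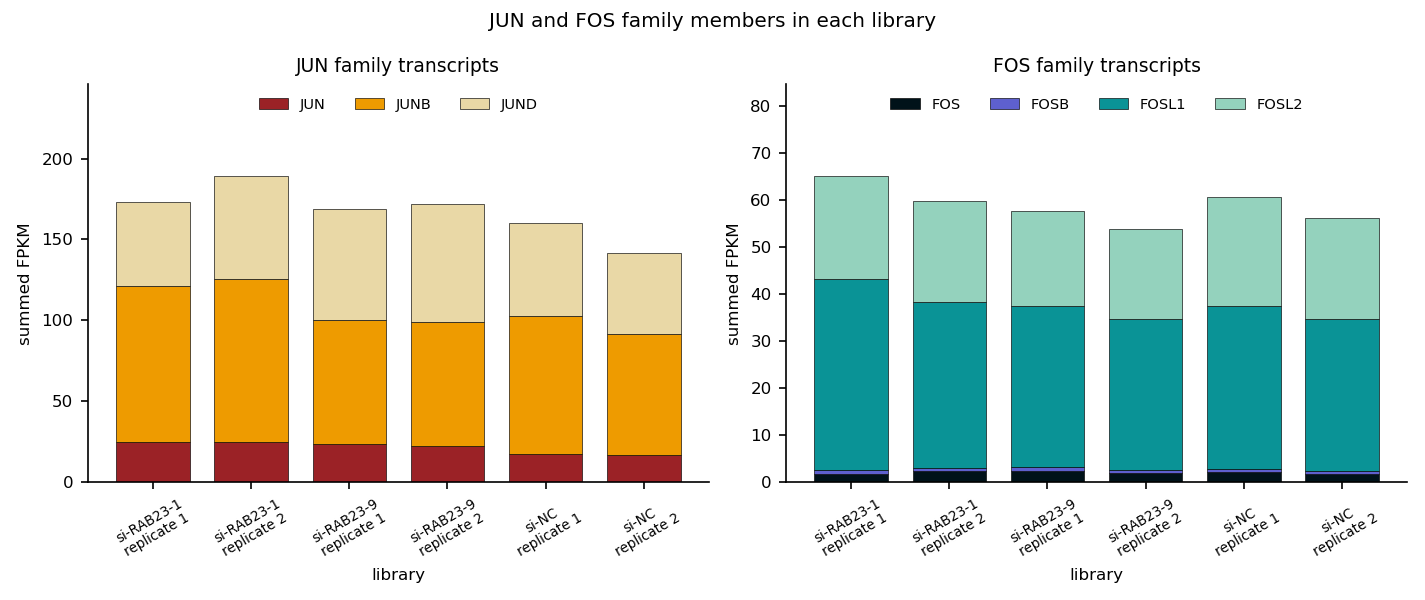
Summed FPKM of the JUN family (left) and the FOS family (right), stacked by gene, in each of the 6 libraries. JUNB and JUND make up most of the JUN family, and FOSL1 and FOSL2 nearly all of the FOS family, in each library.

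Other immediate early genes split between the siRNAs. Of 34 such genes 27 were tested, and 10 rose and 1 fell with si-RAB23-1 (37.0% and 3.70%, beside 8.13% and 7.26% of all genes), with a median log2 fold change of 0.16. CTGF and CYR61, which encode matricellular proteins, rose by 1.12 and 1.07, the growth regulator gene MYC by 1.03 and the kinase gene SGK1 by 0.66 (limma adjusted p = 0.00309, 0.00282, 0.00272 and 0.00211). GADD45A, a DNA damage response gene, fell by 0.27 with si-RAB23-1 and by 0.36 with si-RAB23-9 (limma adjusted p = 0.0113 and 0.00611). With si-RAB23-9 the same 27 genes gave 6 higher and 6 lower (22.2% each, beside 7.56% and 5.69%), with a median of 0.07. BTG2, an antiproliferative gene, rose by 0.73 (limma adjusted p = 0.00609), and MYC by 0.51 (0.0120), while CYR61 fell by 0.42 (0.0238). The MYC and CYR61 calls ended on omitting any 1 of the 4 libraries compared, at limma adjusted p up to 0.0824 for MYC and 0.122 for CYR61. Between the siRNAs 11 of the 27 were lower with si-RAB23-9 and 2 higher (40.7% and 7.41%, beside 9.89% and 11.1% of all genes). CTGF differed by -1.51, CYR61 by -1.48, PLK2, a kinase gene, by -0.57 and BTG2 by 0.78. CYR61 was at 34.4 and 35.7 FPKM with si-RAB23-9, against 108.3 and 91.9 FPKM with si-RAB23-1.

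Of 16 other AP-1 subunits and leucine zipper partners 10 were tested, so 1 gene is 10% of the list, beside the shares of all genes given above. With si-RAB23-1 none was called by limma, while 3 had an unadjusted p under 0.05 (2 higher, 1 lower) and voom called 3 (1 higher, 2 lower). With si-RAB23-9 only MAFF, a small MAF gene, fell in the limma test, by 0.49 (limma adjusted p = 0.0118). Between the siRNAs MAFF (-0.44) and MAFK (-0.23) were lower with si-RAB23-9. The MAFF call against si-NC was lost without si-NC replicate 1 or either si-RAB23-9 library (up to 0.0792), that between the siRNAs without either si-RAB23-9 library (up to 0.0715), and that of MAFK without any 1 library (up to 0.189).

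Among upstream kinases and serum response factors, MAPK9, which encodes the JUN kinase JNK2, had the largest called change with si-RAB23-1. It was at 4.75 and 4.60 FPKM with si-RAB23-1 and at 9.38 and 9.60 FPKM with si-RAB23-9, against 8.71 and 9.16 FPKM with si-NC. MAPK9 fell by 0.81 with si-RAB23-1 (SE 0.0463, limma adjusted p = 0.00193) and was higher by 0.89 with si-RAB23-9 than with si-RAB23-1 (0.00129), and both calls held with any 1 library left out. Of 23 genes in this list 21 were tested. With si-RAB23-1 2 rose and 2 fell (9.52% each, near the 8.13% and 7.26% of all genes). With si-RAB23-9 3 rose and 1 fell (14.3% and 4.76%, beside 7.56% and 5.69% of all genes), and between the siRNAs 4 were higher and 2 lower with si-RAB23-9 (19.0% and 9.52%, beside 11.1% and 9.89%). The ERK activating kinase genes MAP2K1 and MAP2K2, the kinase gene MAPK8 and SRF were called in none of the 3 comparisons. MAP2K7, the gene of a kinase that activates JNK, rose by 0.20 and 0.27, and RPS6KA4 by 0.26 and 0.24, with si-RAB23-1 and si-RAB23-9. ELK3 (-0.25) fell with si-RAB23-1, MAP3K1 (-0.36) fell and RPS6KA1 (0.22) rose with si-RAB23-9. Each of these smaller calls was lost without at least 1 si-NC library, with adjusted p up to 0.150 with si-RAB23-1 and 0.138 with si-RAB23-9.

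In the list of inhibitors and turnover factors 14 of 15 genes were tested. DUSP1, ZFP36, ZFP36L1 and ZFP36L2 are also in the immediate early list above, so the counts of these lists are not separate. With si-RAB23-1 3 rose (21.4%, beside 8.13% of all genes) and none fell (0 lower at an unadjusted p under 0.05, 1 by voom). With si-RAB23-9 2 rose and 2 fell (14.3% each, beside 7.56% and 5.69%), and between the siRNAs 1 was higher and 5 lower with si-RAB23-9 (7.14% and 35.7%, beside 11.1% and 9.89%). In a list of this length 1 gene is 7.14%. ZFP36L1, which encodes a protein that destabilises AU-rich mRNAs, rose by 0.35 with si-RAB23-1 (limma adjusted p = 0.00511), and this call held with any 1 library left out. NAB1, a corepressor of EGR1, and the kinase phosphatase gene DUSP16 rose by 0.33 each, calls that ended on omitting either control library, and for DUSP16 also either si-RAB23-1 library (up to 0.0886 and 0.158). DUSP10, a JNK and p38 phosphatase gene, rose by 0.66 with si-RAB23-9 (limma adjusted p = 0.00461, held throughout). ZFP36 (-0.33), ITCH (-0.33) and ZFP36L1 (0.17) were called with si-RAB23-9, and omitting any 1 library of that comparison ended each call (up to 0.145, 0.0979 and 0.183). Between the siRNAs ZFP36 differed by -0.54 and NAB1 by -0.53, both held throughout.

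Genes with described AP-1 sites moved in both directions. Of 24 such genes 19 were tested, and 9 rose and 2 fell with si-RAB23-1 (47.4% and 10.5%, beside 8.13% and 7.26% of all genes). With si-RAB23-9 7 rose and 4 fell (36.8% and 21.1%, beside 7.56% and 5.69%). Between the siRNAs 5 were higher and 7 lower with si-RAB23-9 (26.3% and 36.8%, beside 11.1% and 9.89%). HBEGF is in both this list and the immediate early list. The chemokine gene CXCL8 rose with both siRNAs, by 0.89 and 0.94, and CCND1, the cyclin D1 gene, fell with both, by 0.94 and 0.56 (in the order si-RAB23-1, si-RAB23-9). These calls held with any 1 library left out. SPP1, the osteopontin gene, was at 1.62 and 1.72 FPKM with si-NC. It was at 15.4 and 14.6 FPKM with si-RAB23-1 and 2.90 and 3.62 FPKM with si-RAB23-9. SPP1 rose by 2.58 with si-RAB23-1 and by 0.67 with si-RAB23-9 (limma adjusted p = 0.000975 and 0.0105). The si-RAB23-9 call ended on omitting either control library. SPRR1B, a cornified envelope gene, rose by 1.10 with si-RAB23-1, a call that ended on omitting either control library (limma adjusted p up to 0.106). HMOX1, the heme oxygenase gene, differed by -0.73 between the siRNAs, while the metalloproteinase genes MMP1, MMP3, MMP9 and MMP13 were too low to be tested, at most 0.441 FPKM.

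**Figure D5:**
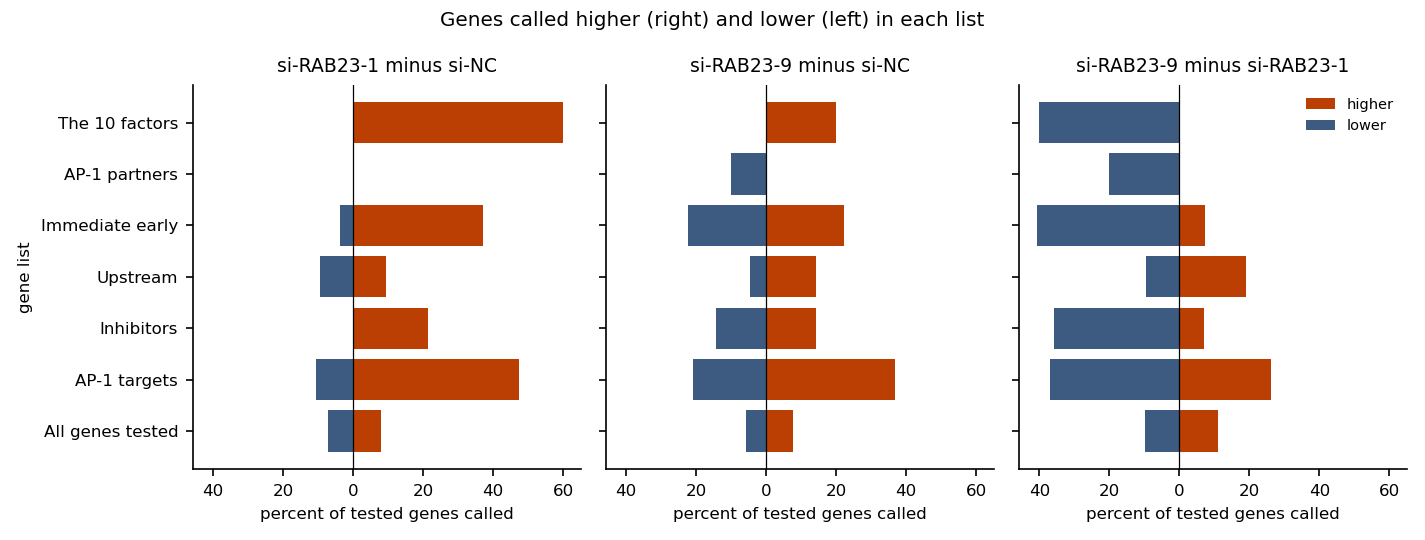
Percent of tested genes called higher (right of 0) and lower (left of 0) in the 10 factors, the 5 related lists and all genes tested, for the 3 comparisons; the bars for lower genes are drawn to the left and carry no sign. The 10 factors have no lower bar against si-NC and no higher bar between the siRNAs, and all genes tested lie between 5.69% and 11.1%.

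The genes most like JUN and KLF6 across the 6 libraries were sought by Pearson correlation of log2(FPKM + 1) among 1637 genes whose group means spanned at least 0.5. For JUN these were HABP4 (r = 0.999), ZNF845 (0.988) and GNPDA1 (0.988). HABP4 was at 9.11 and 8.88 FPKM with si-RAB23-1 and 7.86 and 7.03 FPKM with si-RAB23-9, against 4.16 and 4.12 FPKM with si-NC. For KLF6 they were HSDL2 (0.998), CDK6, the G1 kinase gene (0.997), and RAP2C (0.992). With 6 libraries in 3 groups such values mostly follow the group means and are given as a description.

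By structure the 10 factors were compact. In GENCODE 29, 9 of them spanned less than the median of 31655 bases over 10948 tested protein coding genes, ATF3 at 55444 bases being the other. JUN, JUNB, JUND and IER2 had a single exon in their principal transcript, as do 2.23% of those genes. The AU-rich pentamer ATTTA, known from labile mRNAs, was denser than the median of 1.61 per kilobase of 3′ UTR in 6 of the 10, with 6.20 in FOS and 0 in IER2. Only FOS and FOSL2 held the nonamer TTATTTATT (8.43% of genes).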

How the data were processed

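Gene expression was measured by RNA sequencing in 6 KYSE30 libraries, 2 each with si-RAB23-1, si-RAB23-9 and si-NC, grouped by title. The table the authors deposited gives FPKM per gene and library. Per the submitters' processing notes, which give no roles, the tools included RSEM 1.2.29, STAR 2.5.1b and Trimmomatic 0.36, with FastQC and edgeR 3.8.5, on hg19. Gene starts and ends match GENCODE 29 on GRCh38 for all 58735 entries, so positions are given on GRCh38. FPKM times gene length came out as whole multiples of 1 step per library for 100% of values above 0, within 0.01 of a read, which gave the recovered reads.

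The filter kept genes reaching an FPKM of 1 in 2 or more libraries. R 4.3.3 ran limma 3.58.1 over log2(FPKM + 1) values, with 1 mean per group across all 6 libraries, eBayes with a trend, two-sided tests and Benjamini-Hochberg adjustment. Alternatives were a pseudocount of 0.1, no filter, a mean FPKM of at least 5, median-of-ratios scaling, quantile normalization, 2-group fits, the replicate number as a block, voom on recovered reads, and each library left out in turn. Members, lists and tests were chosen with earlier results of these data known. RAB23, all members, up to 4 called genes of largest change per list and comparison, and the 3 genes most like JUN and KLF6 were named by rule. Other list genes given with values (GADD45A, KRT5, KRT14, KRT17, EPCAM, CDH1, SOX2, TP63, CDH5, HOOK2, the metalloproteinases, MAP2K1, MAP2K2, MAPK8 and SRF) were chosen after their values were seen. Genes that share or overlap reads are uncertain. Some genes that the rule names are not reported here.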

Additional observations from a re-analysis of the deposited data

Results flagged for a closer look

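For 4 of the 10 factors the siRNAs' effects were called different in the direct test of si-RAB23-9 minus si-RAB23-1, although both target RAB23. The log2 differences were -0.73 for KLF6, -0.52 for ATF3, -0.35 for JUNB and -0.26 for EGR1, each lower with si-RAB23-9. RAB23 itself was not called between the siRNAs (0.11, limma adjusted p = 0.383). These 4 are among 3019 genes called in this comparison, where 9.89% of all genes tested were lower and 11.1% higher. Of the 4 calls only that of KLF6 was kept with any 1 library left out.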

How the results depend on the processing

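Member directions and calls kept their side of the threshold for all 30 values (10 genes in 3 comparisons) with a pseudocount of 0.1 and with median-of-ratios scaling. Over all genes the calls were 2209 (si-RAB23-1), 1902 (si-RAB23-9) and 3019 (si-RAB23-9 against si-RAB23-1). Without a filter they were 1049, 983 and 1458, with 2-group fits 1234 (si-RAB23-1) and 1919 (between the siRNAs), and by voom 3800 and 3408 against si-NC. With 1 library left out they ranged from 338 to 1820, 258 to 2075 and 705 to 2691, the lowest without si-NC replicate 2, si-RAB23-9 replicate 2 and si-RAB23-9 replicate 2. Members called numbered 5 with si-RAB23-9 under the mean FPKM filter of 5 and under voom, and 2 between the siRNAs without a filter, where EGR1 and JUNB were lost. Left-out libraries gave 3 to 5, 0 to 3 and 1 to 4 members.

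Directions turned with 1 library left out only for values not called. With si-RAB23-1 the ranges were -0.049 to 0.24 for JUND, -0.12 to 0.18 for FOS and -0.090 to 0.0068 for FOSL2. With si-RAB23-9 they were -0.15 to 0.037 for JUNB, -0.0082 to 0.20 for FOS and -0.069 to 0.031 for FOSL1, and between the siRNAs -0.079 to 0.21 for FOS. The cause was not tested.

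Replicate numbers are shared across groups, and correlations of replicate differences over 14352 genes were -0.0562 to 0.0610. Such correlations over all genes cannot tell whether same-numbered samples shared a culture or a batch. With the replicate block 1655, 1437 and 2423 genes and 5, 3 and 3 members were called. Of the 30 member values 27 kept their call, while KLF6 was gained with si-RAB23-9, and JUNB with si-RAB23-1 and EGR1 between the siRNAs were lost. FOS, with the fewest reads, had the widest error of the 10 factors (SE 0.141).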
